A study of Mus musculus with 4 samples.

Results

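Cones are the photoreceptors of daylight and colour vision, and 10 genes that they use, not all limited to cones, were followed here. Among them were the opsin genes Opn1mw and Opn1sw, the arrestin gene Arr3 and the transducin genes Gnat2 and Gnb3. The rest were the phosphodiesterase genes Pde6c and Pde6h, the channel genes Cnga3 and Cngb3, and Thrb, the gene of a thyroid hormone receptor. All 10 were taken by symbol from a deposited table of 23278 genes, and all were found. Each had a mean of at least 1 FPKM (fragments scaled to transcript length and to library size) over the 4 libraries and a usable status in each, as did 13150 genes in all.

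The RNA came from whole retinas of mice at postnatal day 10, of mixed strain with at least C57BL6 and 129 in it. There were 4 genotypes with 1 library each. The rescue library (NdpKO;Ctnnb1flex3/+;Pdgfb-CreER) lacked Ndp and carried both alleles needed to stabilize beta-catenin, the NdpKO library lacked Ndp only, the stabilization library (Ctnnb1flex3/+;Pdgfb-CreER) carried the same pair of alleles with Ndp intact, and the WT library carried none of these. Ndp encodes Norrin, a secreted ligand of the receptor Frizzled-4 that acts on retinal blood vessels through beta-catenin. Ctnnb1flex3 becomes a stabilized form of beta-catenin once Cre acts on it, and Pdgfb-CreER is a tamoxifen-activated Cre of endothelial cells, so the alleles were directed at vessels and not at cones. Mice of every genotype, WT included, were given 20 ug of 4HT, which activates CreER, at postnatal day 3. Each library was made from 3 pooled batches of 4 to 8 retinas from 2 to 4 mice, which leaves no spread between animals: every difference below is a description of 1 library against 1 library, and no test was run.

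In a cone, light changes the shape of an opsin, the opsin activates transducin, transducin activates a phosphodiesterase that breaks down cyclic GMP, and the fall in cyclic GMP closes cation channels. Arrestin then stops the active opsin. The mouse has an M-opsin (Opn1mw), most abundant in the dorsal retina, and an S-opsin (Opn1sw), most abundant in the ventral retina, and many mouse cones hold both. M-opsin appears later after birth than S-opsin, and in mice its expression needs thyroid hormone and the receptor encoded by Thrb.

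The clearest pattern was in a single opsin. Opn1mw was lower in both libraries with stabilized beta-catenin, at 0.326 times WT with Ndp intact and 0.503 times NdpKO without it, while no pair of libraries was further apart than 1.10 times for Opn1sw. Pde6h was also lower in both stabilized libraries, by less. The other 7 genes had overlapping intervals in all 5 comparisons, where between 0.213% and 2.02% of all genes were apart in each direction. No gene of the 10 stood apart when Ndp alone was missing. Few genes of any kind did, as intervals lay below for 0.327% of all genes and above for 0.433%.

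The libraries matched their labels for Ndp, which was at 0.869 and 0.873 FPKM in rescue and NdpKO against 2.35 and 2.98 FPKM in stabilization and WT. Xist, transcribed from the inactive X, had 1.28 and 1.25 FPKM in rescue and NdpKO against 130 and 135 FPKM in stabilization and WT, so both pools without Ndp had the expression of males and both others that of females. Any comparison of Ndp states is therefore also one of sexes, whereas stabilization against WT and rescue against NdpKO are each within 1 sex. The deposited FPKM summed to between 405525 and 427109 per library. Read totals, not given in the sources used here, cannot be stated. The deposited interval reached from 13.3% to 25.9% above the value for the 10 genes, widest for Opn1mw in the stabilization library. The level of that interval is unstated, and it describes how well a gene was measured in 1 library, not how mice differ.

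**Figure D1:**
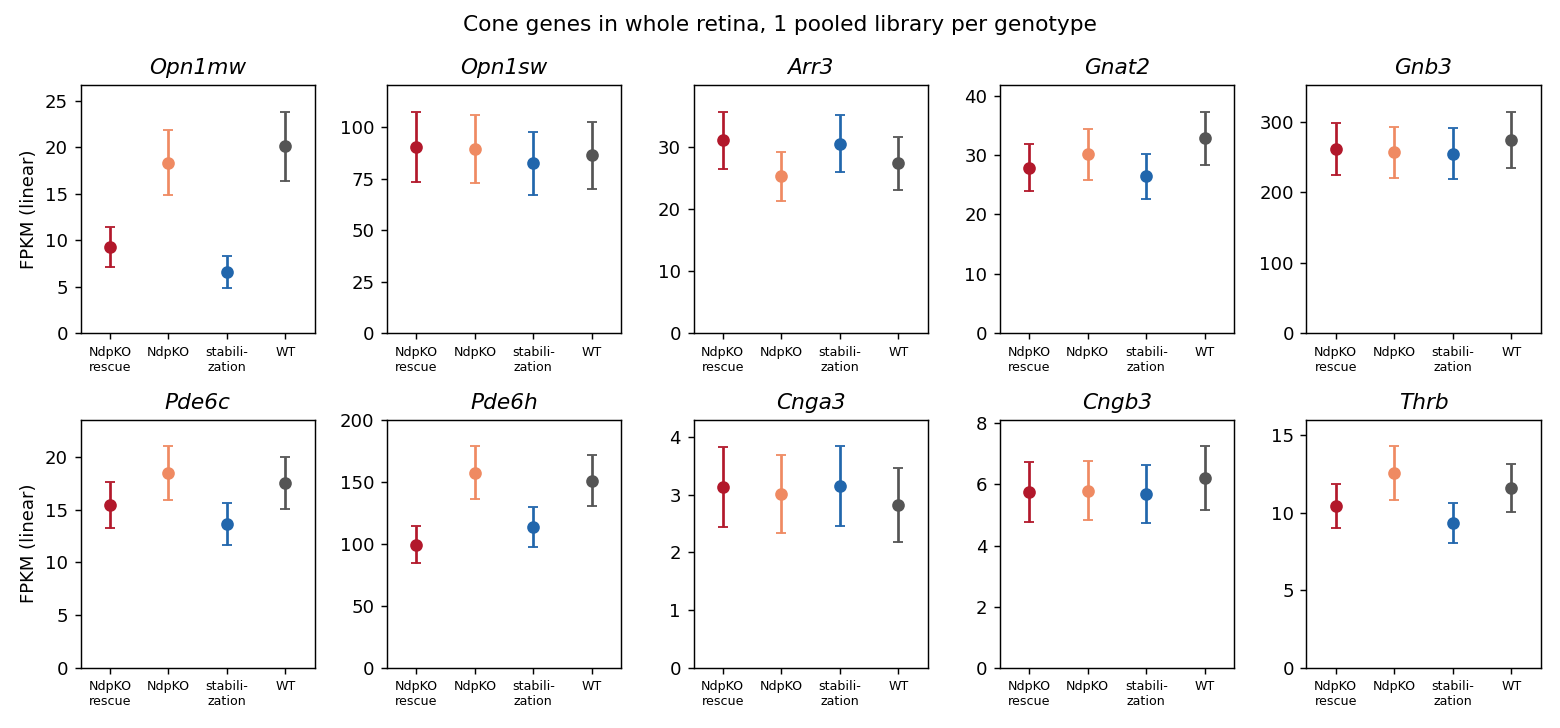
FPKM of the 10 cone genes (linear axes that start at 0, a scale per gene) in the rescue, NdpKO, stabilization and WT libraries, with the deposited interval as bars. Opn1mw, at 9.22, 18.3, 6.56 and 20.1 FPKM, and Pde6h, at 99.5, 158, 114 and 151 FPKM, have intervals in both stabilized libraries below those of the other two; the remaining panels have overlapping intervals.

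FPKM are scaled to transcript length, so levels can be set side by side between genes. Gnb3 was the most abundant of the 10 in every library, at 255 to 275 FPKM, followed by Pde6h at 99.5 to 158 FPKM and Opn1sw at 82.5 to 90.7 FPKM. The channel genes were at the bottom in every library, Cngb3 at 5.68 to 6.21 FPKM and Cnga3 at 2.82 to 3.15 FPKM. Between these ends the order held in all libraries except for the place of Opn1mw and for the near-equal pair Arr3 and Gnat2, whose intervals overlapped in each library. Opn1mw ranked 8 of 10 in rescue, below Thrb, and 7 of 10 in NdpKO. In stabilization it also ranked 8, with an interval that overlapped that of Cngb3 below it, and in WT it ranked 6, next to Pde6c. Pde6h and Opn1sw had overlapping intervals in the rescue and stabilization libraries and intervals apart in NdpKO and WT.

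Promoters are shown for the M-opsin gene and Pde6h, the genes that were lower in both stabilized libraries, and for Opn1sw and Arr3, which were not. Each runs from 250 bases before to 50 bases after the transcription start site of RefSeq on GRCm38.p6, 5′ to 3′ on the strand of the gene: Opn1mw at chrX:74127216-74127515 (plus strand), Pde6h at chr6:136954273-136954572 (plus), Opn1sw at chr6:29380464-29380763 (minus) and Arr3 at chrX:100605247-100605546 (plus). Capitals mark every match to TAATCC or TAATCT, letters bound by the photoreceptor homeodomain factors of the Crx and Otx family, to AGGTCA, the nuclear receptor half-site, or to TATAAA, the TATA box, on either strand. No matches overlapped each other.
Opn1mw: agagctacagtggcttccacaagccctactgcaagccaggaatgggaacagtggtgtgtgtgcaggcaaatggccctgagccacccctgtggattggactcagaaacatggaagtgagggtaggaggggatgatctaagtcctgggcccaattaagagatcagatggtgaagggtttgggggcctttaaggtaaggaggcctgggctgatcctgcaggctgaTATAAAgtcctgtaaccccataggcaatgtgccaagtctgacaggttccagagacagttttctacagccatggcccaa
Pde6h: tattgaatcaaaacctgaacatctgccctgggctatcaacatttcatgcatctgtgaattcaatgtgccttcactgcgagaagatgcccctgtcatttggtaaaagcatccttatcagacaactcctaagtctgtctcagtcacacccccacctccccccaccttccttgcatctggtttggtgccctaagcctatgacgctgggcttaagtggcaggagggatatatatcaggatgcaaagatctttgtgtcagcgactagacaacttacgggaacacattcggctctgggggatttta
Opn1sw: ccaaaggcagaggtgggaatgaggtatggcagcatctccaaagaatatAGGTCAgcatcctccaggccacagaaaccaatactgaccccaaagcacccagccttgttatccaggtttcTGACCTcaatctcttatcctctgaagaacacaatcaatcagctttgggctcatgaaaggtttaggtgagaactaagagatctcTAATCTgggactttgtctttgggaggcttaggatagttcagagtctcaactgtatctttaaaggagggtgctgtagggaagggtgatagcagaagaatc
Arr3: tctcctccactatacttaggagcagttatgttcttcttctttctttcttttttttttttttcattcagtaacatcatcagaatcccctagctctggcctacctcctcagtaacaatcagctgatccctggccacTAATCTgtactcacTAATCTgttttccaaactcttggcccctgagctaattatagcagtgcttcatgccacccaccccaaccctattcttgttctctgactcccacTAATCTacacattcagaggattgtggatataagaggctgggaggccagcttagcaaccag

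The Opn1mw window held 1 match, TATAAA at position -28 from the start site. The Pde6h window held none. Opn1sw held AGGTCA at -202, its reverse complement at -132 and TAATCT at -49, and Arr3 held TAATCT at -116, -102 and -10. Among the 32851 promoters of the table, TAATCC was found in 7.06%, TAATCT in 8.19%, AGGTCA in 16.3% and TATAAA in 13.6%. The full thyroid hormone element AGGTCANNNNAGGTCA was in 0.0152% of them and in none of the 9 windows of the members. A RefSeq promoter was found for 7 of the 10 genes, those above and Gnat2, Cnga3 and Thrb. Gnat2 had TAATCC on the reverse strand at -19, and the first of the Thrb windows had it at -46 beside AGGTCA at -184. TATAAA was in the second Thrb window at -167 and, on the reverse strand, in a Cnga3 window at -122. The genes not matched were Gnb3, Pde6c and Cngb3.

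Opn1mw (X chromosome, 74127466 to 74150755 on mm10) encodes the M-opsin. Its level was 9.22 FPKM in rescue (deposited interval 7.06 to 11.4), 18.3 FPKM in NdpKO (14.8 to 21.8), 6.56 FPKM in stabilization (4.86 to 8.26) and 20.1 FPKM in WT (16.4 to 23.9). Both libraries with stabilized beta-catenin were low and both without it were high, and the intervals of the low pair did not overlap those of the high pair. The level in stabilization was 0.326 times that in WT, a log2 ratio of -1.55 on FPKM plus 0.5. In rescue it was 0.503 times that in NdpKO, a log2 ratio of -0.95. These comparisons share no library. In whole-retina RNA, fewer cells of a type and less RNA per cell cannot be told apart.

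Read against all genes, 1.71% of the 13150 were at least 1.5-fold lower in stabilization than in WT, and 0.92% in rescue than in NdpKO. Of the 10 cone genes, 1 was this low in the first comparison (Opn1mw) and 2 in the second (Opn1mw and Pde6h). In both comparisons at once 0.304% of all genes were 1.5-fold lower, 40 genes, and Opn1mw was 1 of them. Its mean log2 ratio over the 2 Ndp states, -1.25, ranked 90 from the lowest among all 13150 genes and 9 among the 12905 other than short RNA genes. The ratio was 0.59 less negative without Ndp than with it, and 3.33% of all genes had a difference between the states at least that large. That difference could not be tested.

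When Ndp alone was missing, Opn1mw was at 18.3 FPKM in NdpKO against 20.1 FPKM in WT, a log2 ratio of -0.13 with overlapping intervals. Among stabilized retinas it was at 9.22 FPKM in rescue against 6.56 FPKM in stabilization, a log2 ratio of 0.46, and these intervals overlapped too. Set against WT, rescue had 0.458 times the level, a log2 ratio of -1.09 with intervals apart. Opn1mw and Arr3 lie on the X chromosome, and all 3 of these comparisons set male against female pools.

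Opn1sw encodes the S-opsin. It was at 90.7 FPKM in rescue (73.7 to 108), 89.4 FPKM in NdpKO (72.9 to 106), 82.5 FPKM in stabilization (67.2 to 97.9) and 86.5 FPKM in WT (70.2 to 103). All 4 intervals overlapped, and no log2 ratio was further from 0 than 0.14. Its deposited locus (chromosome 6, 29348119 to 29380513) is shared with Calu, the gene of a calcium-binding protein of the secretory pathway, and the rule that divided fragments between them is unstated, so its value carries that doubt. Calu was at 55.7, 51.9, 50.4 and 55.9 FPKM in rescue, NdpKO, stabilization and WT.

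The balance of the opsins can be read within a library, where scaling has no part. Opn1mw made up 9.23% of the summed FPKM of both cone opsins in rescue against 17.0% in NdpKO, and 7.37% in stabilization against 18.9% in WT. S-opsin RNA was thus the larger part in every library at this age, and M-opsin RNA had a smaller share where beta-catenin was stabilized. The doubt from the locus that Opn1sw shares with Calu applies to these shares too. Set over Arr3 in place of Opn1sw, Opn1mw gave a ratio of 0.297 in rescue against 0.726 in NdpKO, and 0.215 in stabilization against 0.738 in WT. Over Gnat2 the ratio was 0.331 in rescue against 0.609 in NdpKO, and 0.248 in stabilization against 0.614 in WT. The low M-opsin value in the stabilized libraries was therefore present relative to other cone genes of the same library.

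**Figure D2:**
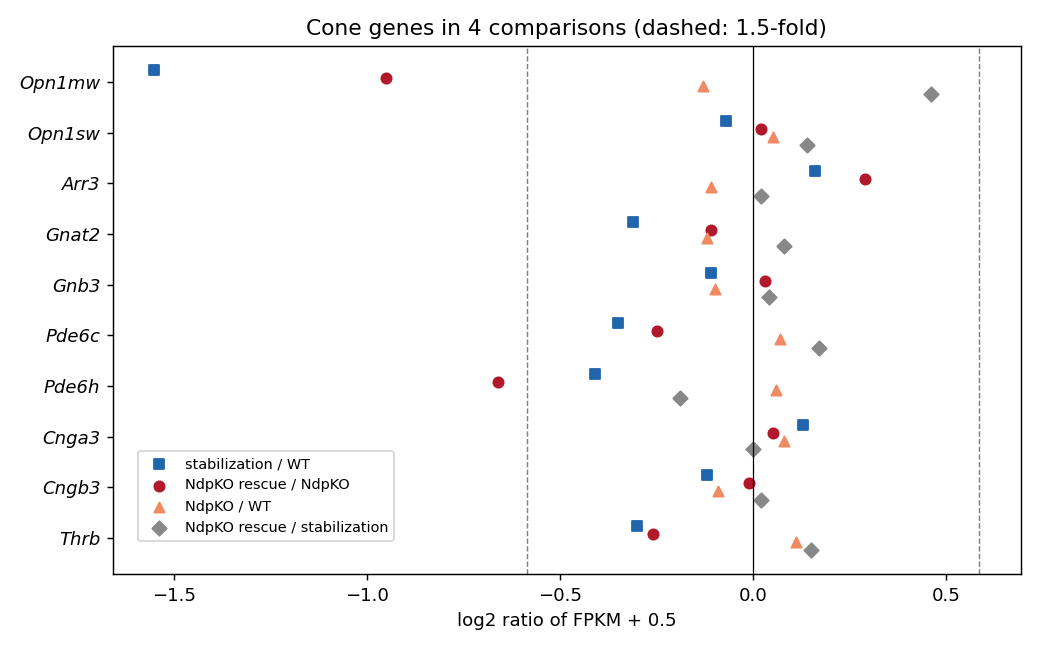
Log2 ratios (FPKM plus 0.5) of the 10 cone genes for stabilization over WT, rescue over NdpKO, NdpKO over WT and rescue over stabilization, with dashed lines at 1.5-fold. Opn1mw lies at -1.55 and -0.95 in the stabilization comparisons, Pde6h at -0.41 and -0.66, and no gene lies beyond 1.5-fold in the Ndp comparisons.

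Arr3 (X chromosome, 100605497 to 100618493) encodes the cone arrestin, which binds active cone opsin. It was at 31.0 FPKM in rescue (26.4 to 35.7) against 25.2 FPKM in NdpKO (21.2 to 29.2), and at 30.5 FPKM in stabilization (25.9 to 35.1) against 27.3 FPKM in WT (23.1 to 31.5). It was the higher value in both stabilized libraries, by log2 ratios of 0.29 and 0.16, with overlapping intervals. In rescue against NdpKO, 93.0% of all genes had a ratio at or below that of Arr3.

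Gnat2 (chromosome 3, 108093068 to 108101285) encodes the alpha subunit of cone transducin. It was at 27.9 FPKM in rescue and 30.1 FPKM in NdpKO, and at 26.4 FPKM in stabilization and 32.8 FPKM in WT. The log2 ratios were -0.11 for rescue over NdpKO and -0.31 for stabilization over WT, both with overlapping intervals. Gnb3 (chromosome 6, 124834240 to 124840275) encodes the beta subunit of cone transducin and is also used by ON bipolar cells, so its level is not one of cones alone. It was at 262, 257, 255 and 275 FPKM in rescue, NdpKO, stabilization and WT, with overlapping intervals and log2 ratios between -0.11 and 0.04.

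Pde6h (chromosome 6, 136954523 to 136963483) encodes the inhibitory gamma subunit of the cone phosphodiesterase, which holds the enzyme off in the dark. It was at 99.5 FPKM in rescue (84.6 to 114), 158 FPKM in NdpKO (136 to 179), 114 FPKM in stabilization (97.2 to 130) and 151 FPKM in WT (131 to 172). As for Opn1mw, both stabilized libraries were low and their intervals lay below those of NdpKO and WT, although the gap between stabilization and WT was narrow. The level was 0.631 times that of NdpKO in rescue and 0.751 times that of WT in stabilization, log2 ratios of -0.66 and -0.41. Only the first passed 1.5-fold, and on a scale centred on the rod genes described below it was -0.47 and did not. Rescue against WT gave -0.60, again past 1.5-fold. Intervals lay below in both stabilization comparisons for 0.213% of all genes, 28 genes, and for Opn1mw and Pde6h of the 10 cone genes.

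Pde6c (chromosome 19, 38132781 to 38183951) encodes the catalytic subunit of that enzyme. It was at 15.5 FPKM in rescue against 18.5 FPKM in NdpKO, and at 13.6 FPKM in stabilization against 17.6 FPKM in WT. The log2 ratios of -0.25 and -0.35 pointed the same way as those of Pde6h, within overlapping intervals. The inhibitory subunit had 6.43 times the FPKM of the catalytic subunit in rescue, 8.53 times in NdpKO, 8.33 times in stabilization and 8.61 times in WT. The rescue library thus had the lowest ratio, and the other 3 lay close together.

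Cnga3 and Cngb3 encode the subunits of the cyclic GMP-gated channel of cones. Cnga3 (chromosome 1, 37219261 to 37263384) was at 3.14 FPKM in rescue, 3.02 FPKM in NdpKO, 3.15 FPKM in stabilization and 2.82 FPKM in WT. Cngb3 (chromosome 4, 19280850 to 19510623) was at 5.76, 5.79, 5.68 and 6.21 FPKM in the same libraries. Neither had a log2 ratio beyond 0.13 in either direction in any comparison, and all intervals overlapped.

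Thrb (chromosome 14, 17660960 to 18038088) encodes thyroid hormone receptor beta. It was at 10.4 FPKM in rescue against 12.5 FPKM in NdpKO, and at 9.32 FPKM in stabilization against 11.6 FPKM in WT. Both stabilized libraries were the lower of their pair, by log2 ratios of -0.26 and -0.30, with overlapping intervals. The table has a single value for the gene, which joins the cone form of the receptor with its other transcripts.

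Over the 10 genes, the median log2 ratio was -0.06 in rescue over NdpKO and -0.21 in stabilization over WT, beside 0.03 and -0.02 for all genes tested. In both stabilization comparisons 6 of the 10 were below 0 (Opn1mw, Gnat2, Pde6c, Pde6h, Cngb3 and Thrb), as were 30.4% of all genes. Another 2, Arr3 and Cnga3, were above 0 in both, as were 35.9% of all genes. The group of 6 depends on scaling. Centred on the rod genes, Gnat2 and Cngb3 left it, at 0.08 and 0.18 in rescue over NdpKO. Centred on all genes, Opn1sw and Gnb3 joined it, at -0.01 each in rescue over NdpKO and -0.05 and -0.09 in stabilization over WT. No member was 1.5-fold higher in rescue than in NdpKO, where 1.76% of all genes were, or in stabilization than in WT, where 1.67% were. By intervals, 2 members (Opn1mw and Pde6h) lay below in rescue against NdpKO and none above, where 0.487% of all genes lay below and 1.26% above. The same 2 lay below in stabilization against WT and none above, where 1.57% of all genes lay below and 1.76% above.

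In NdpKO over WT the median was -0.02, the ratios ran from -0.13 to 0.11, and none of the 10 was 1.5-fold apart, where 1.22% of all genes were lower and 0.966% higher. No interval of the 10 was apart there, where 0.327% of all genes lay below and 0.433% above. In rescue over stabilization none was 1.5-fold apart, where 0.692% of all genes were lower and 0.981% higher. No interval was apart there either, where 0.213% of all genes lay below and 0.312% above. In rescue over WT, Opn1mw and Pde6h were at least 1.5-fold lower and no member was higher, where 1.07% of all genes were lower and 1.79% higher. The intervals of the same pair lay below and none above, where 0.464% of all genes lay below and 2.02% above. These 3 comparisons share libraries with each other and with the stabilization comparisons.

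**Figure D3:**
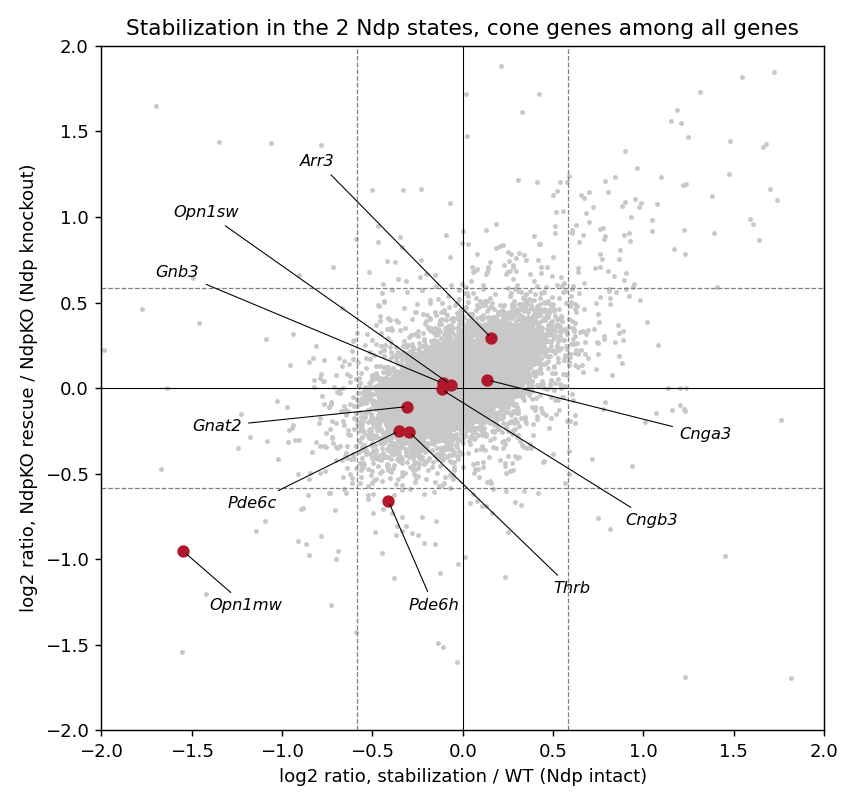
Log2 ratio of stabilization over WT (x axis) against that of rescue over NdpKO (y axis) for the genes tested (grey; 165 lie beyond the axes, which end at 2) and the 10 cone genes (red), with dashed lines at 1.5-fold. Opn1mw lies far out in the lower left quadrant at -1.55 and -0.95, and 8 of the other 9 lie inside 1.5-fold on both axes.

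The genes most like Opn1mw were sought among 11740 genes by the distance between log2 profiles over the 4 libraries, each centred on its own mean. The 5 closest were Spc25, Pomc, Dapl1, Gdf1 and Lrtm1, at distances between 0.45 and 0.52 log2 units beside a median of 1.31. Spc25, a kinetochore gene, was at 12.1 FPKM in rescue against 23.0 FPKM in NdpKO and at 11.0 FPKM in stabilization against 21.1 FPKM in WT. Pomc, the precursor of several peptide hormones, was at 3.06 FPKM in rescue against 6.19 FPKM in NdpKO and at 2.69 FPKM in stabilization against 5.33 FPKM in WT. Gdf1, a growth factor gene, was at 0.953 FPKM in rescue (0 to 3.11), 2.85 FPKM in NdpKO (0.356 to 5.34), 0.362 FPKM in stabilization (0 to 2.84) and 1.81 FPKM in WT (0 to 5.15). Its intervals overlapped in all 5 comparisons, so its likeness rests on values that were poorly measured, whereas those of the other 4 genes lay below in both stabilization comparisons. Ranked by correlation of the profiles, which ignores the size of a difference, none of these was among the closest 5. A profile of 4 libraries is short, and the likeness is a description only.

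Proteins of the cone cascade have counterparts in rods, and the rod genes show how the cone values stood beside those of the other photoreceptors. The log2 ratio of Pde6h minus that of its rod counterpart Pde6g was -0.56 for rescue over NdpKO and -0.22 for stabilization over WT. Gnat2 minus Gnat1, the rod transducin gene, was 0.80 without Ndp and -0.15 with it, and the first value came from Gnat1, at 213 FPKM in rescue against 401 FPKM in NdpKO. Arr3 minus the rod arrestin gene Sag was 0.25 and 0.34, and Cnga3 minus the rod channel gene Cnga1 was 0.29 and 0.61. The remaining pairs of these subunits lay between -0.62 (Pde6c minus Pde6a with Ndp intact) and 0.18 (Cngb3 minus Cngb1 without Ndp).

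**Figure D4:**
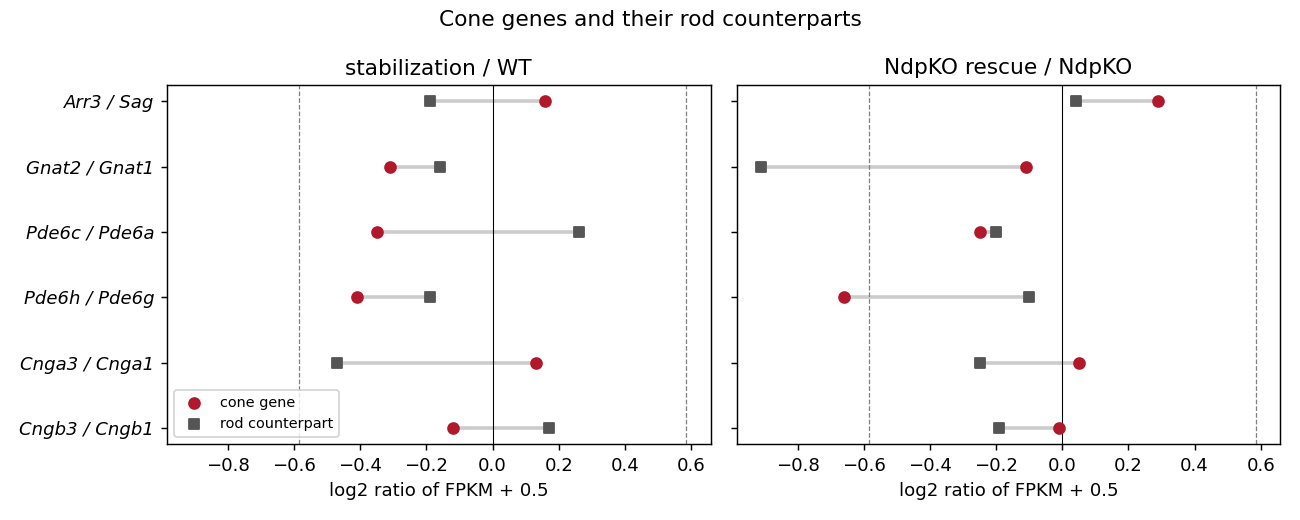
Log2 ratios of 6 cone genes (red circles) and their rod counterparts (grey squares) for stabilization over WT and for rescue over NdpKO, with dashed lines at 1.5-fold. The widest gap in the first panel is between Pde6c and Pde6a, at -0.35 and 0.26; in the second, it is between Gnat2 and Gnat1, at -0.11 and -0.91.

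Of the 11 rod genes, 1 was at least 1.5-fold lower in rescue than in NdpKO (Gnat1, -0.91) and 1 in stabilization than in WT (Gngt1, the rod transducin gamma subunit, -0.72), beside 0.92% and 1.71% of all genes, with list medians of -0.19 and -0.16. In NdpKO over WT 2 were higher, Gnat1 (0.74) and the exchanger gene Slc24a1 (0.60), beside 0.966% of all genes, and the rod and cone lists were not tested against each other. Components that rods and cones share had no member of 15 beyond 1.5-fold in any comparison. Between 0.692% and 1.79% of all genes were that far apart in each direction. Their lowest values with stabilization were Grk1, the opsin kinase gene, at -0.46 without Ndp and -0.56 with it, and Rcvrn, the recoverin gene, at -0.47 and -0.41, all with intervals below. Guca1a, the gene of a guanylate cyclase activator, was at -0.03 without Ndp and -0.55 with it.

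Among 7 further cone genes, Kcne2, a potassium channel subunit, was 1.5-fold lower in stabilization than in WT, at 10.9 against 18.1 FPKM (-0.70), and had a log2 ratio of -0.42 in rescue over NdpKO. The others were between, with list medians of 0.09 without Ndp and 0.24 with it. Of all genes, 0.92% were 1.5-fold lower and 1.76% higher in rescue over NdpKO, and 1.71% and 1.67% in stabilization over WT. By intervals, Kcne2 lay below and Gulo above in stabilization over WT, beside 1.57% and 1.76% of all genes. Gulo was at 12.5 against 8.71 FPKM there (0.50) and had a log2 ratio of 0.09 in rescue over NdpKO. Gngt2, the gamma subunit of cone transducin, was at 132 FPKM in rescue, 119 FPKM in NdpKO, 145 FPKM in stabilization and 172 FPKM in WT. Its log2 ratio of -0.53 in NdpKO over WT came with intervals apart, which held for no other gene of either cone list when Ndp alone was missing. Intervals lay below for 0.327% of all genes there and above for 0.433%. Rxrg, the gene of the retinoid receptor partner of Thrb, was at 4.61 FPKM in rescue against 3.41 FPKM in NdpKO (0.39) and at 5.26 FPKM in stabilization against 3.96 FPKM in WT (0.37). Its intervals overlapped in both comparisons.

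Of 14 transcription factors of photoreceptors, none was 1.5-fold apart in rescue over NdpKO, where 0.92% of all genes were lower and 1.76% higher. In stabilization over WT 1 was lower, Rora (-0.68), and none higher, beside 1.71% and 1.67% of all genes. Crx and Otx2, which drive photoreceptor genes, had log2 ratios of 0.15 and 0.16 in rescue over NdpKO and 0.15 and 0.09 in stabilization over WT. Nrl and Nr2e3, which set rod over cone identity, were at -0.08 and 0.11 in rescue over NdpKO and at 0.04 and 0.16 in stabilization over WT.

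Of 13 genes of the visual cycle, which renews the light-absorbing retinal, 12 were expressed enough to compare. None was 1.5-fold apart in rescue over NdpKO, where 0.92% of all genes were lower and 1.76% higher. In stabilization over WT 3 were higher, Rpe65 (0.72), Rbp3 (0.75) and Rgr (0.59), and 1 was lower. Of all genes, 1.67% were higher and 1.71% lower there. In rescue over NdpKO Rpe65 was at -0.42, Rbp3 at 0.26 and Rgr at 0.14, with overlapping intervals. Rpe65 is also among the pigment epithelium markers below.

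M-opsin depends on thyroid hormone in mice, so the genes that carry, convert and read the hormone were listed, 18 beside Thrb, of which 17 were expressed enough to compare. In rescue over NdpKO 2 were 1.5-fold higher and none lower, beside 1.76% and 0.92% of all genes. In stabilization over WT 2 were higher and 1 lower, beside 1.67% and 1.71% of all genes. The higher ones were the same in both. Slco1c1, a thyroxine transporter of barrier endothelium, was at 2.32 FPKM in rescue against 0.0206 FPKM in NdpKO and at 3.63 FPKM in stabilization against 0.396 FPKM in WT. Slc7a5, a carrier of large amino acids and thyroid hormone, was at 31.4 FPKM in rescue against 20.7 FPKM in NdpKO and at 33.1 FPKM in stabilization against 21.5 FPKM in WT, just past 1.5-fold in both (0.59 and 0.61). The lower one was Dio2, the deiodinase that makes active hormone, at 1.78 FPKM in stabilization against 3.87 FPKM in WT (-0.94) and at 2.69 FPKM in rescue against 3.24 FPKM in NdpKO (-0.23). Hr and Klf9 are genes that thyroid hormone induces in the brain. Hr was at 13.1 FPKM in rescue against 19.3 FPKM in NdpKO (-0.54) and at 12.4 FPKM in stabilization against 17.6 FPKM in WT (-0.49), with intervals below in both. Klf9 had log2 ratios of -0.15 in rescue over NdpKO and -0.44 in stabilization over WT. In the same order, the receptor gene Thra had log2 ratios of 0.24 and 0.07. Dio3, which inactivates the hormone, was below 0.5 FPKM in every library and too low to compare. The list medians were 0.08 and 0.11, beside 0.03 and -0.02 for all genes.

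The cone opsins are graded from dorsal to ventral retina, so genes of that axis were listed as well, 15 with 11 expressed enough to compare. Aldh1a1, a retinoic acid enzyme of the dorsal retina, was lower with stabilization in both states, at 9.93 FPKM in rescue against 16.6 FPKM in NdpKO and at 9.12 FPKM in stabilization against 15.2 FPKM in WT (-0.71 in both, intervals below). Cyp26a1, a retinoic acid-degrading enzyme, was 1.5-fold higher in rescue than in NdpKO (0.65) with overlapping intervals. No other member was 1.5-fold apart in these comparisons. Of all genes, 0.92% were lower and 1.76% higher in rescue over NdpKO, and 1.71% and 1.67% in stabilization over WT. The dorsal factors Tbx2 and Tbx3 were at 65.1 and 5.16 FPKM in stabilization against 51.9 and 3.97 FPKM in WT. In rescue they were at 58.2 and 4.72 FPKM, against 50.6 and 4.78 FPKM in NdpKO. Their intervals overlapped in both comparisons. The list medians were 0.01 in rescue over NdpKO and 0.07 in stabilization over WT, beside 0.03 and -0.02 for all genes. Vax2, the ventral transcription factor, was at 16.5 FPKM in rescue against 16.4 FPKM in NdpKO and at 15.7 FPKM in both stabilization and WT. The dorsal factor Tbx5, below the minimum, was at 0.768 FPKM in rescue, 1.02 FPKM in NdpKO, 1.02 FPKM in stabilization and 1.01 FPKM in WT, and Aldh1a3, a ventral enzyme, stayed below 0.5 FPKM. The part of the Aldh1a1 shift in the Opn1mw values was not tested.

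**Figure D5:**
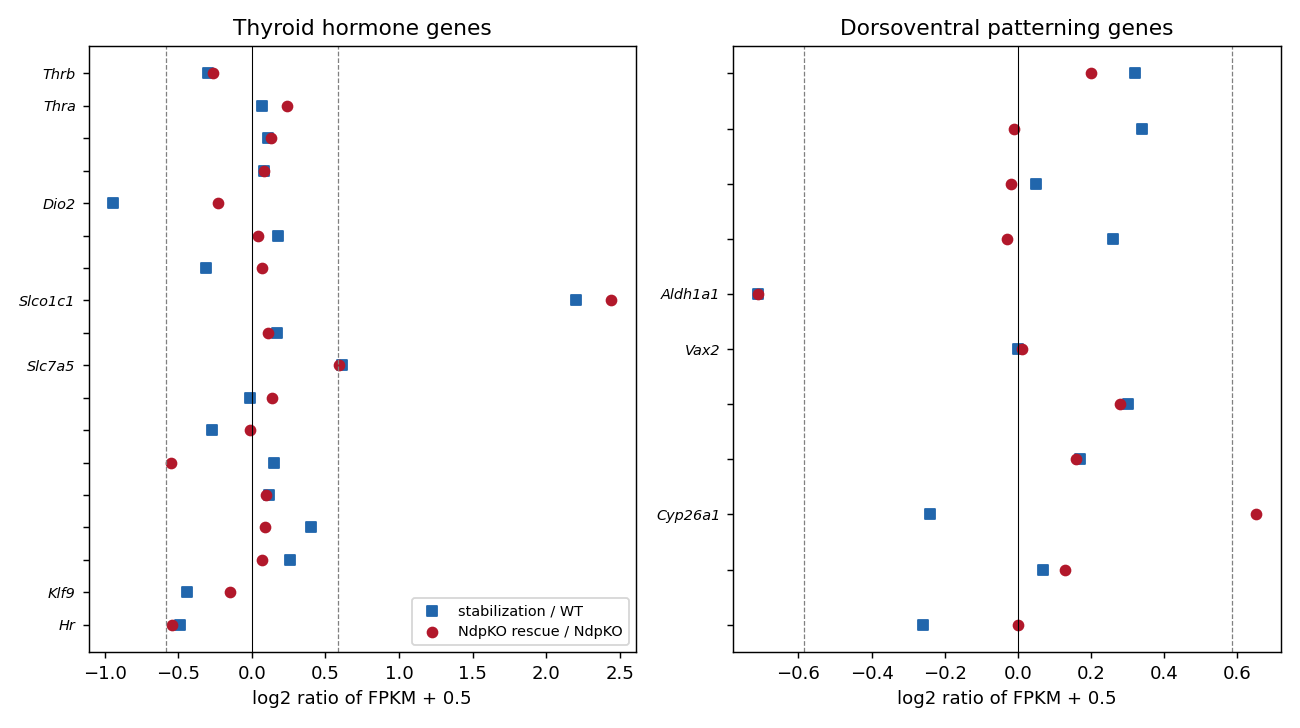
Log2 ratios for stabilization over WT (blue squares) and rescue over NdpKO (red circles) of the thyroid hormone genes, with Thrb at the top, and of the dorsoventral genes that could be compared; dashed lines mark 1.5-fold, and rows without a name are further genes of the lists. Slco1c1 lies at 2.20 and 2.44, Dio2 at -0.94 and -0.23 and Aldh1a1 at -0.71 in both.

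Markers of other cells moved in the same libraries. Among all genes, 1.76% were 1.5-fold higher and 0.92% lower in rescue over NdpKO, and 1.67% and 1.71% in stabilization over WT. All 4 endothelial markers (Cldn5, Pecam1, Cdh5 and Tie1) were 1.5-fold higher in both stabilization comparisons, as were 0.73% of all genes. Their FPKM summed to 26.6 in rescue against 4.69 in NdpKO and to 29.0 in stabilization against 10.5 in WT. Of 5 ganglion cell markers none was 1.5-fold apart in rescue over NdpKO and 2 were higher in stabilization over WT, with sums of 292 FPKM in rescue against 286 FPKM in NdpKO and of 282 FPKM in stabilization against 256 FPKM in WT. Of 7 pigment epithelium markers, 4 of them expressed enough to compare, none was 1.5-fold apart in rescue over NdpKO and 2 were higher in stabilization over WT, with sums of 35.5 FPKM in rescue against 47.2 FPKM in NdpKO and of 51.3 FPKM in stabilization against 41.6 FPKM in WT. No bipolar, Muller glia or amacrine and horizontal cell marker was 1.5-fold apart in either. No marker on these lists was at 0 in any library. The part of these shifts in the cone values was not tested.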

How the data were processed

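Each library was made (TruSeq v2 kit) from RNA combined over 3 batches of its genotype, per the labels' protocols. The authors deposited 1 table with the FPKM of each gene, its interval bounds and a status. The submitters' processing notes name TopHat, Cuffdiff and mm10. Versions, gene annotation, strand and depth were not given in the sources used here. Columns were matched to libraries by number, and 0 columns belonged to no sample.

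Log2 ratios were computed on FPKM plus 0.5, which understates changes of low genes. Genes at least 1.5-fold apart were counted over 13150 genes with a mean of at least 1 FPKM and status OK in each library. With 1 library per genotype no test was run. Loci are those deposited, on mm10, with the start counted from 1. The members, lists and rules were chosen with earlier results of these data known. Named were the 10 members, their rod counterparts, list members beyond 1.5-fold, genes set by name and the 5 genes most like Opn1mw. Grk1, Rcvrn, Guca1a, Hr, Klf9, Gngt2, Gulo, Tbx2, Tbx3 and Calu were named after their values were seen. A few genes that this rule names are not reported here. Alternatives were pseudocounts of 0.1 and 1, re-centring on all genes or on rod genes, TPM, no minimum or 5 FPKM, 2-fold, and intervals apart. The ratio and call were tested on simulated data with noise at 0.1 times the spread taken from the deposited WT intervals. That check does not cover calls at the real measurement error or between animals. Python 3.11.15, numpy 2.4.6, pandas 2.3.3 and matplotlib 3.10.9 were used, with RefSeq promoters and GENCODE M21.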

Additional observations from a re-analysis of the deposited data

Results flagged for a closer look

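Some cone genes had log2 ratios of opposite sign for 1 factor in the 2 states of the other. With 1 library per genotype the difference was not tested, and 33.1% of all genes had opposite signs for stabilization and 49.5% for loss of Ndp. For loss of Ndp, the ratio of Opn1mw was 0.46 with stabilized beta-catenin and -0.13 without it, a difference of 0.59. The same difference was 0.14 for Arr3, 0.20 for Gnat2, 0.14 for Gnb3, -0.25 for Pde6h, -0.09 for Cnga3 and 0.11 for Cngb3. For stabilization, the ratio without Ndp minus that with Ndp was 0.09 for Opn1sw (0.02 and -0.07) and 0.14 for Gnb3 (0.03 and -0.11). Re-centred on all genes, both were below 0 in each state, at -0.01 and -0.05 for Opn1sw and -0.01 and -0.09 for Gnb3. For loss of Ndp, that setting also gave equal signs for Arr3 (-0.01 with stabilized beta-catenin and -0.09 without) and Cngb3 (-0.02 and -0.07). The intervals behind all of these ratios overlapped.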

How the results depend on the processing

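The 50 ratios of the members were recomputed under 5 settings. Of 250 values, 249 kept their side of 1.5-fold and moved by less than the deposited intervals allow, and 0 changed sign from a called value. The exception was Pde6h in rescue over NdpKO, at -0.47 after re-centring on the rod genes, a construction that adds 0.19 to each ratio there. Uncalled ratios near 0 did change sign under re-centring. On the rod genes, Opn1sw and Gnb3 in stabilization over WT went from -0.07 and -0.11 to 0.09 and 0.05. Thrb and Pde6c in NdpKO over WT went from 0.11 and 0.07 to -0.10 and -0.14. Opn1mw stayed past 1.5-fold under each of these settings in rescue over NdpKO, stabilization over WT and rescue over WT. With a call at 2-fold, 0 members were called in rescue over NdpKO, 1, Opn1mw, in stabilization over WT and the same 1 in rescue over WT, where 0.464%, 0.722% and 0.639% of all genes were 2-fold lower. Ranking by Pearson correlation shared 0 of the 5 genes most like Opn1mw, and a pseudocount of 1 shared all 5. No paired analysis was possible because the labels give no replicate numbers that genotypes share. The 2 Ndp states were set side by side, and a fit that adds their effects to that of stabilization was not run. Depth is unknown, so no limit from counts can be given.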
